A study of Mus musculus with 6 samples.

Results

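The 10 genes described here encode the core of the cytosolic heat shock response in mouse, and they are 10 of the 55536 genes in the deposited count table. They were chosen by name, after levels of this comparison between treated and control tumors had been seen. Their differences are therefore given as a description, and the test results for them below are no evidence of their own. The set holds the small heat shock proteins Hspb1, Hspb8 and Cryab, the HSP70 genes Hspa1a, Hspa1b and Hspa8, the HSP110 gene Hsph1, the J protein gene Dnajb1, the HSP90 gene Hsp90aa1 and the transcription factor gene Hsf1. All 10 passed the filter on low counts.

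RNA was sequenced from tumors of murine HCC HCA-1 cells, placed orthotopically in the livers of male C3H mice (C3H/HeNCrNarl in the study's methods) that were 6 to 8 weeks old. The control group holds 3 libraries of untreated tumors, numbered 5, 6 and 7. The treated group holds 3 libraries, numbered 1, 2 and 5, of tumors from mice given nanoparticles loaded with GOX and DOX intravenously, named GOx-DOX-LGP here after the study. Glucose oxidase (GOx) consumes glucose and releases hydrogen peroxide, and doxorubicin (DOX) damages DNA. The labels place dosing on days 18, 19 and 20, but the transcriptome analysis on day 17 after 3 h of circulation. The study's methods for quantitative PCR give the same dosing days, with tumors taken on the day after the last dose. They do not say whether the sequenced tumors were the same. The labels do not say that each library came from a separate mouse, so p-values measure the spread between these libraries.

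Heat shock proteins bind unfolded proteins and help them to refold, to stay soluble or to be degraded. HSF1 is held inactive in unstressed cells, and on heat, oxidants or other protein damage it forms trimers that bind heat shock elements in the promoters of chaperone genes. Some chaperones, such as the HSC70 protein of Hspa8, are abundant without stress, whereas Hspa1a and Hspa1b are the classical inducible HSP70 genes.

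A heat shock element is a run of short GAA units in alternating orientation. RefSeq promoter windows on GRCm38.p6, from 250 bases before to 50 bases after a start, were matched by symbol for 6 of the 10 genes, namely Hspb1, Hspb8, Hspa1a, Hspa1b, Hsph1 and Dnajb1. The windows were searched for GAANNTTCNNGAA and TTCNNGAANNTTC, which are each other's reverse complement, so that both strands were covered. The 130 bases before the start are shown for the 3 genes with the largest positive differences below, with the fixed bases of each match in capitals, allowing 1 changed base, and overlapping matches merged.

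Hspa1a (chr17:34972157-34972286, minus strand): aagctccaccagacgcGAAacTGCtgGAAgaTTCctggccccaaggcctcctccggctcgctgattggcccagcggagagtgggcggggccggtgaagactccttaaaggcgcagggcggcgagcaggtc

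Hspa1b (chr17:34959239-34959368, minus strand): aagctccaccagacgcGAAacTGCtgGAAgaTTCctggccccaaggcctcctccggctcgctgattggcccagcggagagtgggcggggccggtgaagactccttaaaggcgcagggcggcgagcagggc

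Hspb1 (chr5:135887789-135887918, plus strand): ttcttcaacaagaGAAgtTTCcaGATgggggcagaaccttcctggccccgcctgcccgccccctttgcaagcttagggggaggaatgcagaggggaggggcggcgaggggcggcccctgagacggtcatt

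The Hspa1a and Hspa1b stretches were equal at 129 of 130 bases (99.2%) and both carried the pair of overlapping matches that begins 114 bases before the start. In Hspb1 the match began 117 bases before the start. Hsph1 held the exact element TTCtgGAAagTTC, 37 to 49 bases after the start in the first of its 2 windows, and further matches with 1 changed base. An exact match was present in 1 of the 6 genes and a match with up to 1 change in 4 of 6. The 4 include the nearly equal Hspa1a and Hspa1b. Over all 32851 windows, counted per window and not per gene, 0.603% held an exact match and 7.22% a match with up to 1 change. These letters were not found in the windows of Hspb8 and Dnajb1.

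Among the libraries, totals lay between 15529940 and 18401178 counts. The control tumors were unlike each other, and this bears on each result. Across genes, which are not independent replicates, r of log2 CPM (counts per 1000000 counts of a library) was 0.969 between controls 6 and 7. It was 0.659 to 0.730 between control 5 and these, and 0.966 to 0.975 between control 5 and the treated libraries. Hepatocyte RNA went with this split, and Alb, the albumin gene, measured 353 CPM in control 5, 73804 and 128244 CPM in controls 6 and 7, and 733 to 1893 CPM in the treated libraries. The summed CPM of 16 hepatocyte markers was 833 in control 5, 158823 and 262124 in controls 6 and 7, and 1809 to 4470 in the treated libraries. Of 11 markers of liver cancer and progenitor cells, Spp1 (osteopontin) had the highest mean over the 6 libraries, at 6838 CPM in control 5, 463 and 178 CPM in controls 6 and 7, and 4589 to 6936 CPM in treated libraries. Of the 9 markers in this list that passed the filter, 6 had a positive log2 fold change (GOx-DOX-LGP minus control) and 3 a negative one. The negative ones were Afp (-1.26), Gpc3 (-1.06) and H19 (-0.33). Afp had 4.91 CPM in control 5, 10.3 and 13.2 CPM in controls 6 and 7, and 2.25 to 4.94 CPM in treated libraries. Fetal markers of liver cancer were scarce, with Afp from 46 to 123 counts, Igf2 at most 3 and Dlk1 at most 2 counts in a library. In bulk tumor RNA, fewer cells of a type and less RNA per cell cannot be told apart. CPM values were scaled with TMM, an edgeR method that corrects for a few very abundant genes, and the controls 6 and 7 had the smallest factors, 0.759 and 0.569, against 1.21 to 1.24 in the other libraries.

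Per kilobase of exon, the level of Hspa8 was the highest of the set in control tumors, with 323 ± 26.0 CPM per kb (SD, n = 3). Hsp90aa1 followed with 139 ± 46.6 and Hspb8 with 73.2 ± 38.0 CPM per kb (SD, n = 3), and these intervals overlapped. Dnajb1, Hsph1, Hspb1, Cryab, Hspa1b and Hsf1 lay between 12.5 and 3.40 CPM per kb, with many neighbours within their spread. Hspa1a was lowest, at 0.332 ± 0.254 CPM per kb (SD, n = 3) in control and 1.44 ± 0.0512 CPM per kb (SD, n = 3) in treated tumors. In treated tumors Hspb1 reached 21.5 ± 7.16 CPM per kb (SD, n = 3), within the spread of Dnajb1 at 20.3 ± 3.99 CPM per kb (SD, n = 3).

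The inducible HSP70 genes were higher in every GOx-DOX-LGP library than in any control. Hspa1a (chromosome 17, 34969190 to 34972156 on GRCm38) had 42, 8 and 4 counts in controls 5, 6 and 7, and 90, 85 and 81 counts in treated libraries 1, 2 and 5. Its level was 1.84, 0.678 and 0.430 CPM in the controls and 4.45, 4.16 and 4.21 CPM in the treated libraries. The treated libraries were close together, and control 5 lay between them and the other controls. The mean was 4.35-fold that of the controls, and the fitted log2 fold change was 2.05 (standard error 0.56), or 2.94 (standard error 0.42) without control 5. With 4 to 42 counts in the controls, this gene rests on few reads. Fits without control 5, here and below, have controls 6 and 7 alone, both with high hepatocyte markers. Their standard errors leave out the difference between control 5 and these controls.

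Hspa1b (chromosome 17, 34956436 to 34959238), the neighbouring copy, measured 8.12, 14.1 and 11.3 CPM in controls 5, 6 and 7. The treated libraries 1, 2 and 5 had 25.5, 26.1 and 20.1 CPM. Here control 5 was the lowest of all libraries, and the groups stood well apart. The mean was 2.14-fold that of the controls, with a log2 fold change of 1.10 (standard error 0.28), or 0.94 (standard error 0.23) without control 5.

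Reads of the 2 copies can be confused. Of the 50-base stretches in the Hspa1a transcript, 60.3% also occur in another gene, mostly Hspa1b, and 62.3% of those of Hspa1b occur elsewhere. In the coding part the shares were 84.7% and 82.2%, and after the coding part 0% for both. The split between the copies is therefore uncertain, and reads that match both may be missing from the counts. Hspa1a counts per 100 Hspa1b counts were 22.7, 4.82 and 3.81 in controls 5, 6 and 7 and 17.4, 16.0 and 21.0 in the treated libraries, so that controls 6 and 7 held proportionally fewer Hspa1a reads. Gm20481, which overlaps Hspa1a on the opposite strand, had 0 counts in all libraries.

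Hspa8 (chromosome 9, 40800984 to 40810087), the constitutive HSP70 gene, measured 1463, 1260 and 1443 CPM in the controls and 2009, 1605 and 1992 CPM in the treated libraries. Each treated library was above each control, with a mean 1.34-fold that of the controls. The log2 fold change was 0.43 (standard error 0.38), smaller than those of Hspa1a and Hspa1b. Pseudogenes such as Gm15459 share 38.6% of its 50-base stretches. Gm15459 had at most 1 count in a library, and reads matching both may be missing. Snord14c, Snord14d and Snord14e overlap Hspa8 on the same strand.

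The ratio of inducible to constitutive HSP70 counts within a library does not depend on the scaling. Hspa1a and Hspa1b together had 6.81, 11.7 and 8.13 counts per 1000 Hspa8 counts in controls 5, 6 and 7. The treated libraries 1, 2 and 5 had 14.9, 18.8 and 12.2. The groups did not overlap, but control 6 and treated library 5 were near each other.

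Dnajb1 and Hsph1 encode co-chaperones of HSP70. Dnajb1 (chromosome 8, 83608193 to 83612653), which stimulates the HSP70 ATPase, measured 55.6, 30.9 and 33.7 CPM in the controls and 79.7, 58.4 and 56.8 CPM in the treated libraries. The groups did not overlap, but control 5 was within 2 CPM of treated library 5. Its log2 fold change was 0.70 (standard error 0.30), and 1.04 (standard error 0.22) without control 5. Per 1000 Hspa8 counts, Dnajb1 had 38.0 counts in control 5, above treated libraries 2 and 5 with 36.4 and 28.5.

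Hsph1 (chromosome 5, 149614287 to 149636376) encodes HSP110, a nucleotide exchange factor for HSP70. It measured 76.9, 50.1 and 70.5 CPM in the controls and 99.9, 60.0 and 83.2 CPM in the treated libraries, so that the groups overlapped. The log2 fold change was 0.30 (standard error 0.28) for this gene, the only 1 of the 6 with an exact heat shock element in its window. Per 1000 Hspa8 counts, Hsph1 had 39.8 to 52.5 counts in controls and 37.4 to 49.8 in treated libraries, which overlapped.

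Hsp90aa1 (chromosome 12, 110690605 to 110702728), the stress-responsive HSP90 isoform, measured 756, 445 and 434 CPM in the controls and 913, 618 and 1053 CPM in the treated libraries. Control 5 was above treated library 2, so that the groups overlapped. The log2 fold change was 0.66 (standard error 0.41), and 1.00 (standard error 0.31) without control 5. Pseudogenes share 47.5% of its 50-base stretches. Gm12346, the main one, had 12 to 122 counts in a library, far below the 4032 to 20241 counts of Hsp90aa1. Reads matching both may be missing. Per 100 counts of Hsp90ab1, the constitutive isoform, Hsp90aa1 had 34.1, 30.5 and 29.4 counts in the controls and 40.4, 30.9 and 41.0 in the treated libraries, and control 5 exceeded treated library 2.

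**Figure D1:**
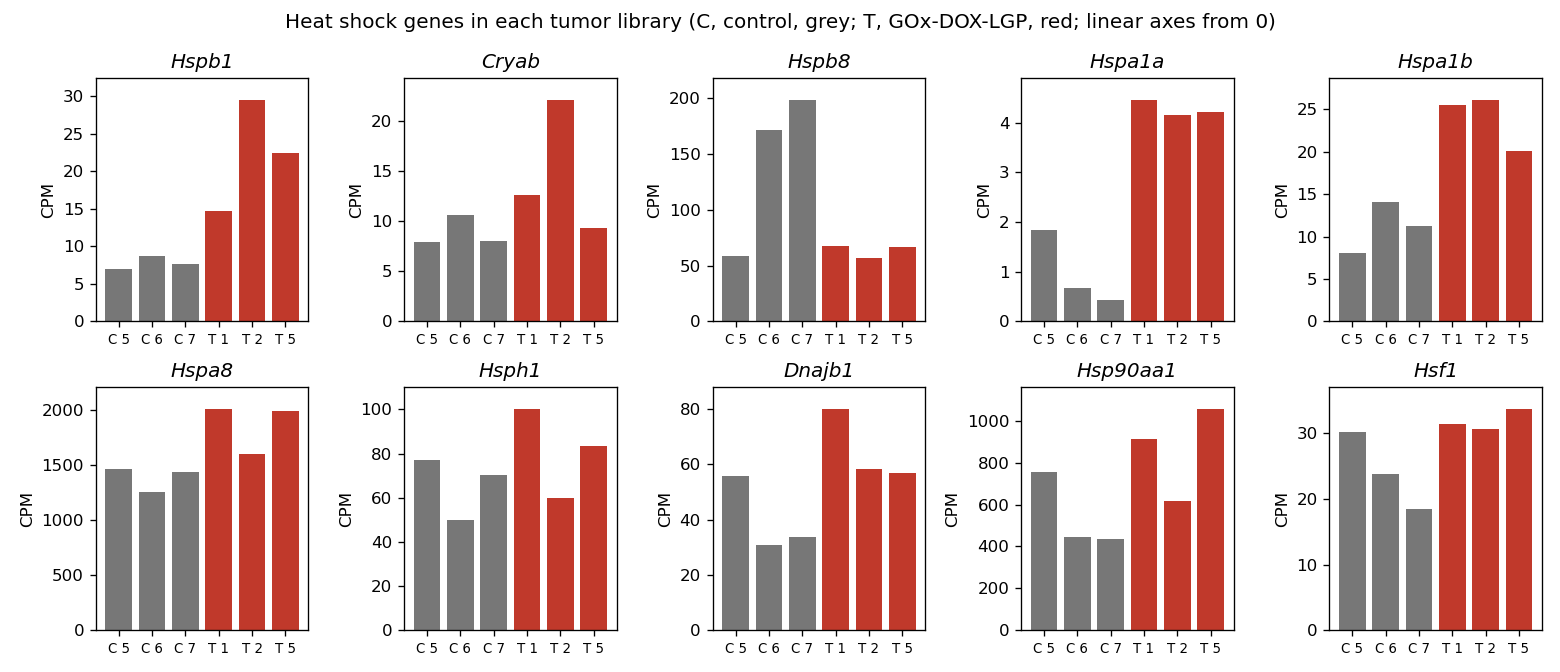
CPM (linear axes from 0, TMM scaling) of each of the 10 genes in controls 5, 6 and 7 (C, grey) and GOx-DOX-LGP libraries 1, 2 and 5 (T, red), 1 bar per library. Hspb1 and Hspa1b were lowest in control 5 and higher in each treated library than in any control, whereas Hspb8 was high in controls 6 and 7 alone.

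The small heat shock proteins went separate ways. These oligomeric chaperones hold unfolded proteins without using ATP. Hspb1 (chromosome 5, 135887919 to 135889563), which encodes HSP25 in mouse, measured 6.98, 8.73 and 7.64 CPM in controls 5, 6 and 7. The treated libraries 1, 2 and 5 had 14.7, 29.4 and 22.4 CPM. The controls were within 2 CPM of each other, and each treated library was above them. The mean was 2.85-fold that of the controls, with a log2 fold change of 1.51 (standard error 0.32), and 1.47 (standard error 0.33) without control 5. The pseudogene Hsp25-ps1 shares 48.8% of its 50-base stretches and had 1 to 3 counts in a library, so that reads matching both may be missing.

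Cryab (chromosome 9, 50751325 to 50756636), the alpha B crystallin gene, measured 7.90, 10.6 and 8.07 CPM in the controls and 12.7, 22.1 and 9.31 CPM in the treated libraries. Treated library 5 was below control 6, so that the groups overlapped, and treated library 2 alone was far above the controls. The log2 fold change was 0.73 (standard error 0.38), and 0.33 without treated library 2. Hspb2, which overlaps it on the opposite strand, had at most 5 counts. Cryab is abundant in striated muscle, and of 12 markers of that tissue, of which Ttn had the highest mean over the 6 libraries, 8 had under 20 counts over all libraries together, and their summed CPM was 3.14 to 4.74 in controls and 4.35 to 6.03 in treated libraries.

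Hspb8 (chromosome 5, 116408491 to 116422864), a partner of the co-chaperone BAG3 in selective autophagy, was the only 1 of the 10 with a negative difference. Its level was 58.6 CPM in control 5, 172 CPM in control 6 and 198 CPM in control 7. The treated libraries 1, 2 and 5 had 67.7, 56.9 and 66.7 CPM. Control 5 lay inside the range of the treated libraries, so that the groups overlapped, and controls 6 and 7 were far above both. The log2 fold change was -1.16 (standard error 0.46), and -1.50 (standard error 0.18) without control 5. Bag3 itself was lowest in controls 6 and 7, at 40.8 and 48.0 CPM, with 89.1 CPM in control 5 and 77.6 to 96.1 CPM in treated libraries. Controls 6 and 7 were also those with the high hepatocyte markers. With the mean log2 CPM of these markers as a covariate, the log2 fold change of Hspb8 was -0.25. Under the same covariate it was 1.55 for Hspb1, 1.40 for Hspa1b and 1.62 for Hspa1a. It was 0.79 for Cryab, 0.45 for Dnajb1, 0.40 for Hspa8 and Hsp90aa1, 0.21 for Hsph1 and 0.19 for Hsf1. In that fit edgeR called 0 genes. The covariate was 4.68 in control 5, 12.4 and 13.1 in controls 6 and 7, and 5.90 to 7.26 in treated libraries. The fit therefore leans on control 5, and the part of hepatocyte RNA was not tested.

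Hsf1 (chromosome 15, 76477422 to 76501913) measured 30.1, 23.8 and 18.4 CPM in the controls and 31.3, 30.6 and 33.6 CPM in the treated libraries. The groups did not overlap, but control 5 was within 1 CPM of treated library 2. Its log2 fold change was 0.40 (standard error 0.24), and 0.62 (standard error 0.20) without control 5. HSF1 is regulated in large part by trimer formation, phosphorylation and localization, which RNA counts do not show.

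Over the 10 genes, the log2 fold change was positive for 9, with a median of 0.68, beside a median of 0.02 over the 15374 genes tested. In edgeR's quasi-likelihood test with Benjamini-Hochberg adjustment, 0 of the 10 genes and 0 of all genes (0%) had an adjusted p under 0.05. At an unadjusted p under 0.05, Hspb1, Hspa1a and Hspa1b were higher, where 2.87% of all genes were, and Hspb8 was lower, where 14.6% of all genes were. DESeq2 called Hspb1, Hspa1a and Hspa1b higher, with 0.994% of its genes called higher and 9.54% lower. Without control 5, edgeR called 6 of the 10 genes higher, against 22.2% of all genes, and Hspb8 lower, against 25.5%. The 6 were Hspb1, Hspa1a, Hspa1b, Dnajb1, Hsp90aa1 and Hsf1. Since values of this contrast were in view when the genes were chosen, these counts are no evidence of their own.

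The groups did not overlap, with each treated library higher, for 6 of the 10 genes and for 8.87% of all genes. Each treated library was lower for 0 of the 10 genes and for 8.31% of all genes. Scaled by library totals alone, 6 genes again did not overlap, against 14.6% of all genes, with Cryab in place of Hsf1. The median difference of all genes then moved from 0.02 to 0.51 and that of the 10 genes from 0.68 to 1.08. For Hspb1 and Hspa1b, control 5 was also not the highest control. Both conditions together, no overlap and control 5 not the highest control, were met by 1.74% of all genes. The second condition was chosen after values had been seen, so this share is no evidence of its own.

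**Figure D2:**
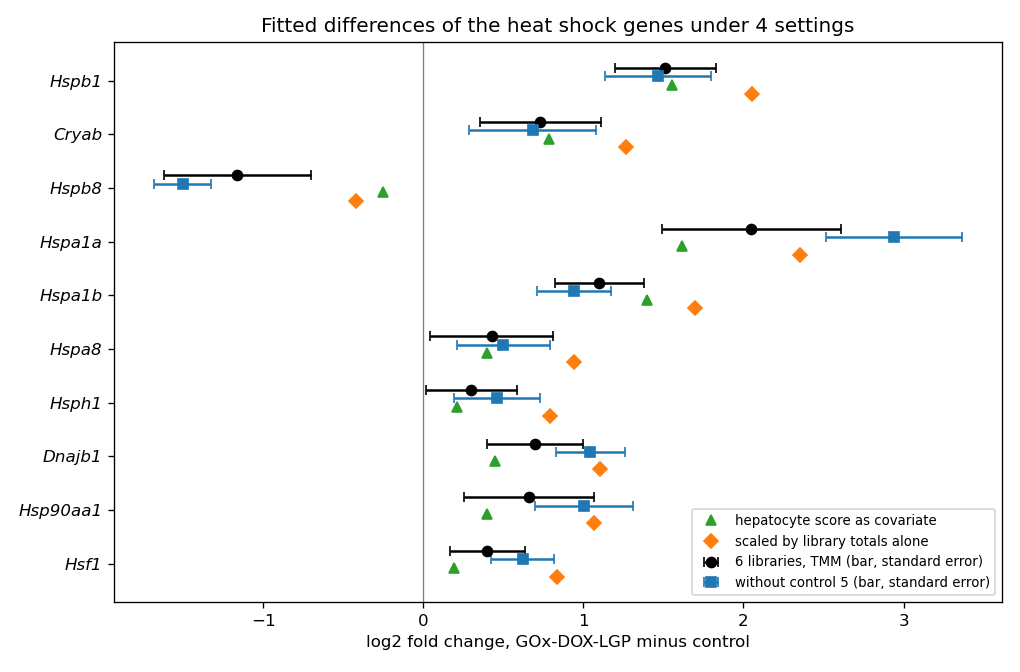
Log2 fold change (GOx-DOX-LGP minus control) of each gene from all 6 libraries (black, bar of 1 standard error), without control 5 (blue, bar of 1 standard error), with the hepatocyte score as a covariate (green) and scaled by library totals (orange). The sign of each gene was the same in these fits, and Hspb8 ranged from -1.50 to -0.25.

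**Figure D3:**
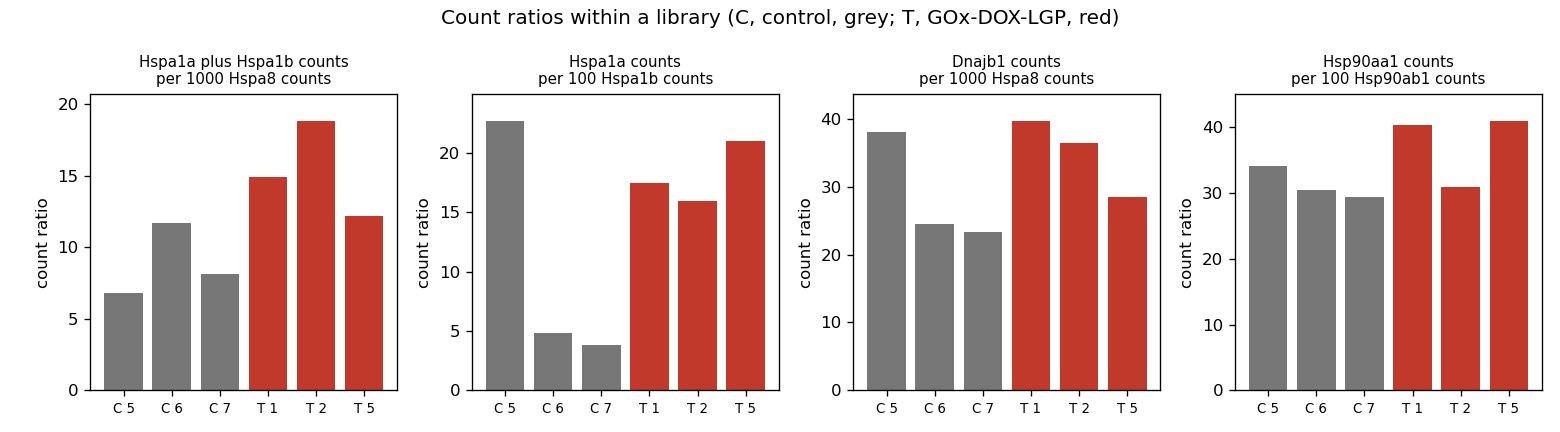
Ratios of counts within a library for controls 5, 6 and 7 (C, grey) and GOx-DOX-LGP libraries 1, 2 and 5 (T, red), linear axes from 0. Inducible HSP70 counts per 1000 Hspa8 counts were 6.81 to 11.7 in controls and 12.2 to 18.8 in treated libraries, while the other 3 ratios overlapped between the groups.

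The rest of the chaperone network was examined in 9 lists of textbook families that hold none of the 10 genes, 8 of them mainly cytosolic and 1 mitochondrial. Of 79 genes, 72 were kept by the filter, with 35 positive and 37 negative differences and a median log2 fold change of -0.02. Scaled by library totals 62 were positive, with a median of 0.55 beside 0.51 for all genes, so that signs are given relative to all genes. By that measure 34 lay above the median of all genes with TMM and 39 with library totals. In edgeR's quasi-likelihood test 0 of the 72 had an adjusted p under 0.05, as did 0 with DESeq2, and the lowest adjusted p in edgeR was 0.247. At an unadjusted p under 0.05, 1 gene was higher (Vbp1, a prefoldin subunit) and 8 were lower, 4 of the 8 mitochondrial. Over all genes 2.87% were higher and 14.6% lower at that threshold. Without control 5, 12 of the network genes were called higher and 13 lower, 5 of the 13 mitochondrial. That fit called 22.2% of all genes higher and 25.5% lower. The groups did not overlap for 6 network genes with the treated libraries higher and 8 with them lower. Over all genes these shares were 8.87% and 8.31%.

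Nearest to the 10 genes are their relatives of the same families. Of 6 other small heat shock protein genes, only Hspb6 was kept, at 24.8, 22.9 and 23.9 CPM in the controls and 35.6, 26.0 and 30.7 CPM in the treated libraries (log2 fold change 0.37, standard error 0.20). The groups of Hspb6 did not overlap. Among 7 other HSP70 and HSP110 genes the median was 0.30, with 5 of 7 above all genes in each scaling, and the largest difference was that of Hspa4l, a further HSP110 gene (0.71, standard error 0.62). Hspa4l measured 197 CPM in control 5, above all treated libraries at 154 to 174 CPM, and 70.1 and 33.6 CPM in controls 6 and 7. Without control 5 its log2 fold change was 1.69 (standard error 0.32) and it was called higher by edgeR, as were 22.2% of all genes. Of 14 other J protein genes, 9 lay below the median of all genes with TMM and 8 with library totals. The largest difference was that of Dnajb2 (-0.85, standard error 0.33). It was called lower without control 5 (-1.09, standard error 0.19), as were 25.5% of all genes.

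The median log2 fold change was -0.08 for 9 co-chaperones of HSP70, with Bag4 at -1.08 (standard error 0.38). For 14 genes of the HSP90 machinery it was 0.03, with Fkbp4, an immunophilin, at -0.47 (standard error 0.37). Of 8 subunits of TRiC, the ring that folds actin and tubulin, 7 lay above the median of all genes with TMM and 8 with library totals. The largest difference was 0.48 (Cct4, standard error 0.33), and the groups overlapped for each subunit. For prefoldin, which delivers clients to TRiC, the median of 6 subunits was 0.29, and Pfdn4 was at 0.73 (standard error 0.42). Without control 5 these 4 genes were called by edgeR, with Bag4 at -1.35, Fkbp4 at -0.71, Cct4 at 0.86 and Pfdn4 at 1.29. That fit called 22.2% of all genes higher and 25.5% lower. In that fit 2 co-chaperones of HSP70, 1 gene of the HSP90 machinery, 3 subunits of TRiC and 2 of prefoldin were called higher, and 1 co-chaperone and 2 genes of the HSP90 machinery lower.

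Of the 4 kept genes among 6 for other heat shock factors and proteins that bind such factors, 4 lay below the median of all genes with TMM and 3 with library totals. Hsbp1l1 had the largest, -2.56 (standard error 1.08), with 3 counts in control 5, 35 and 34 in controls 6 and 7 and 5 to 10 in the treated libraries. Of 9 mitochondrial chaperones, 8 lay below the median of all genes with TMM and with library totals, and their own median was -0.58 with TMM. Grpel1, which serves mitochondrial HSP70, was at -1.70 (standard error 0.58), with 34.3, 124 and 186 CPM in controls 5, 6 and 7 and 32.7 to 37.3 CPM in the treated libraries. As with Hspb8, controls 6 and 7 stood alone as high in both genes. Both were called lower by edgeR without control 5, as were 25.5% of all genes.

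**Figure D4:**
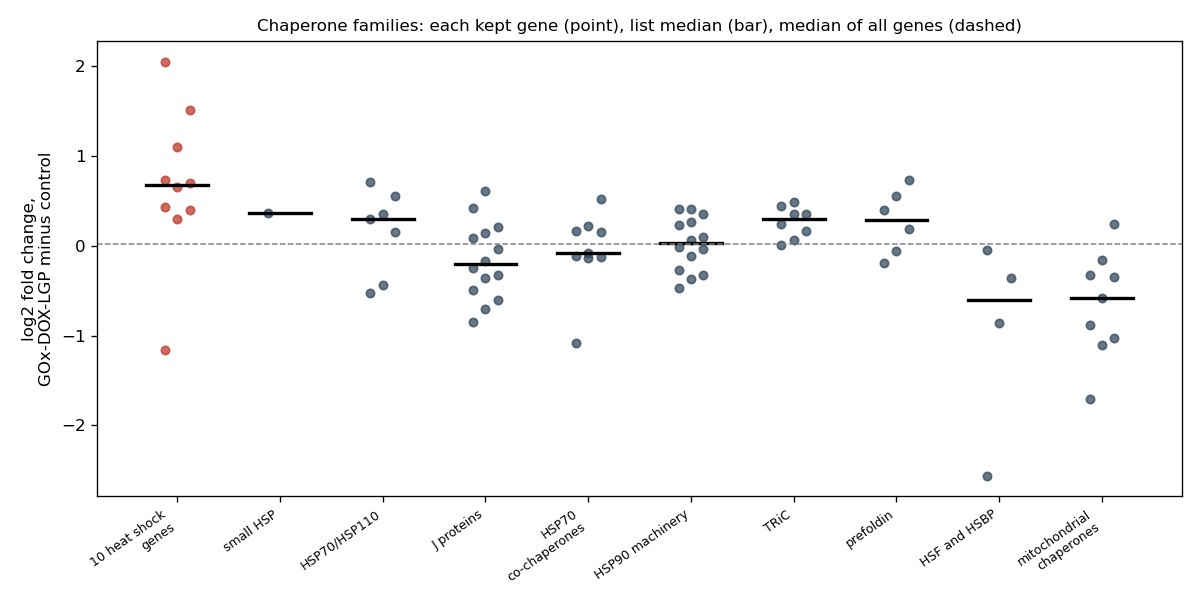
Log2 fold change (GOx-DOX-LGP minus control) of each kept gene (points) in the 10 heat shock genes and the 9 lists of other chaperones, with the median of each list (black bars) and of all genes (dashed line at 0.02). With TMM scaling, list medians ran from -0.61 to 0.37, beside 0.68 for the 10 genes, and 9 of the 10 were above the dashed line.

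Other cell types and stress programs also moved between the libraries, and their part in the results was not tested. The summed CPM of 14 leukocyte markers was 224 to 430 in controls and 416 to 749 in treated libraries, with 12 of 13 kept genes positive. Csf1r had the highest mean over the 6 libraries, but Cd68 exceeded it in each treated library. For 9 endothelial markers it was 139 CPM in control 5 and 366 and 415 CPM in controls 6 and 7. The treated libraries had 101 to 123 CPM, and 8 of 9 genes were negative. Kdr had the highest mean over the 6 libraries, through controls 6 and 7 with 81.7 and 105 CPM, and was below Pecam1 in the other 4. For 12 smooth muscle and fibroblast markers it was 5859 CPM in control 5 and 1970 and 1682 CPM in controls 6 and 7. The treated libraries had 2253 to 7007 CPM. Of these 12 genes, 7 were positive and 5 negative. Rgs5 (-2.47) and Myh11 (-1.74) were lower in each treated library than in any control, as were 8.31% of all genes. Col1a1 had the highest mean over the 6 libraries, but Col3a1 exceeded it in controls 6 and 7 and treated library 2. For 11 immediate early genes, which also respond while tissue is handled, it was 1448 CPM in control 5, 533 and 455 CPM in controls 6 and 7, and 679 to 1038 CPM in treated libraries. Egr1 had the highest mean over the 6 libraries, through 603 CPM in control 5, while Zfp36 exceeded it in controls 6 and 7. Of the controls, control 5 had the highest immediate early sum. It was also the highest control for Hspa1a, Hspa8, Hsph1, Dnajb1, Hsp90aa1 and Hsf1, and the lowest for Hspb1, Hspb8, Cryab and Hspa1b. Mitochondrial genes took 2.21% of the counts in control 5, 7.02% and 8.98% in controls 6 and 7, and 2.63% to 3.23% in the treated libraries.

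Other genes with a heat shock element in the promoter window are given for comparison. Outside the 10 genes, 61 tested genes had an exact match, with a median log2 fold change of -0.18, and the treated libraries were higher without overlap for 6 of them (9.84%). For 720 genes with a match of up to 1 change, the median was -0.05 and this share 8.33%. Over the 11047 tested genes with a promoter window the median was -0.01 and the share 8.29%.

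Hspa1a had the largest spread of log2 CPM over the 6 libraries (SD 1.35). The genes with the most similar profile, by the root mean square difference of log2 CPM from each gene's own mean, were 4930430E12Rik (0.17), Runx2os1 (0.20) and Adora2b (0.23), the last an adenosine receptor gene. All were low, from 0 to 2.94 CPM in every library, with control 5 between the other controls and the treated libraries.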

How the data were processed

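Tumor RNA of 6 libraries was analysed. The deposited counts are whole reads per gene. For these the authors' methods name TopHat and HTSeq, whereas the submitters' processing notes name Trimmomatic 0.38, HISAT2 2.1.0 and featureCounts 2.0.0. The build, annotation and use of strand are not given in the sources used here. The deposited signal values are these counts divided by a size factor per library by the authors, and served for gene symbols. Positions and lengths are from GENCODE M21 (GRCm38), promoters from RefSeq.

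The software was edgeR 4.0.16 with limma 3.58.1 in R 4.3.3. Genes passing filterByExpr (15374) were scaled with TMM and compared by the quasi-likelihood test without covariates, with Benjamini-Hochberg adjustment over all genes kept and a threshold of 0.05. Log2 CPM used a prior count of 2. DESeq2 1.42.0 was run on the same genes, and 14385 had an adjusted p. Standard errors were derived from the F statistic. Figures used matplotlib 3.10.9 in Python 3.11.15.

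The 10 genes and all lists were chosen with earlier results of these data known. The text names all 10, the gene with the largest difference in each chaperone list, Alb and the gene of highest mean CPM over the 6 libraries in each other marker list, and the 3 genes most like the member with the largest SD. Genes named beside these, such as those sharing sequence, low markers and ratio partners, and the description of genes with heat shock elements and of control 5 among the controls, were chosen after values had been seen.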

Additional observations from a re-analysis of the deposited data

How the results depend on the processing

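The alternatives were DESeq2, 3 other scalings, all genes unfiltered, a covariate for hepatocyte markers and leaving out each library. The sign of the difference was the same for each of the 10 genes in all 12 alternatives. The number of genes called was 0 in edgeR, 1516 with DESeq2, and 0 to 7745 when a library was left out, with 7745 without control 5 and 0 without any other. In the fits with 0 calls, between 696 and 3784 genes had an unadjusted p under 0.05. For the chaperone network lists the number called was 0 to 25 when a library was left out, again with 25 without control 5. In that fit 22.2% of all genes were called higher and 25.5% lower. The median difference of the 10 genes moved to 1.08 with library totals, where the median of all genes was 0.51, and lay between 0.53 and 0.81 when a library was left out. With the covariate it was 0.42. Leaving out treated library 2 moved Cryab from 0.73 to 0.33, leaving out control 6 moved Hsph1 from 0.30 to 0.13, and leaving out control 7 moved Hsf1 from 0.40 to 0.23. The cause was not tested. No paired analysis was possible because the groups share only the number 5. The low counts of Hspa1a in controls 6 and 7 limit its precision.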

Other observations

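Some genes of the chaperone network lists that the filter left out had counts mainly in treated library 2, the library with the highest Hspb1 and Cryab. Cryaa, the alpha A crystallin gene, had 27 counts there, 1 in treated library 1 and 0 in the other 4 libraries. Hspb7, a small heat shock protein gene of striated muscle, had 51 counts there and 6 to 10 in the other libraries. Hsf2bp had 31 counts there and 3 to 10 elsewhere. These genes were singled out after their values had been seen.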
